A study of Mus musculus with 15 samples.

Results

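The cytosolic ribosomal protein genes were followed through 15 RNA-seq libraries of mouse enteric neural crest-derived cells (ENCDC), the migrating precursors of the enteric nervous system. They were taken by gene symbol, as Rpl, Rplp, Rps and Rpsa genes without the Rps6k kinases, and 82 of the 17090 genes in the count table met this rule. Of these, 50 encode proteins of the large subunit and 32 of the small subunit, with the paralogs Rpl3l, Rpl7l1, Rpl22l1, Rpl39l and Rps27l included by their names. The study asked what cell-autonomous signaling through retinoic acid receptors does in ENCDC, using RarαDN, a dominant-negative form of the receptor RARα that is switched on by Cre. At E11.5, stomach ENCDC came from 4 control embryos with Wnt1Cre and ROSA26TdTomato and from 4 embryos that carried RarαDN LoxP/+ on top of both alleles. At E13.5, colon ENCDC came from 4 control embryos with the RETCreERT2-EYFP Tandem allele and from 3 embryos with RarαDN LoxP/+ as well (1 more library was dropped by the authors' quality control), all given tamoxifen at E10.5. The labels give a mixed background for all mice, while the study's methods give C57BL/6J for the RarαDN, Wnt1Cre and TdTomato alleles. Each library held cells of a single embryo's organ sorted by TdTomato or EYFP fluorescence. Wnt1Cre acts in the neural crest, while RETCreERT2 acts in cells that express Ret, among them some blood lineage cells. Age, organ, Cre driver, reporter and tamoxifen all differ between both experiments and cannot be told apart.

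As background, a ribosome is built from a large and a small subunit, each a core of ribosomal RNA with its own set of proteins, most of them needed in equal numbers. The small subunit reads the mRNA, and the large subunit joins amino acids and lets the new chain out through its exit tunnel. In mammals most mRNAs of ribosomal proteins begin with a run of pyrimidines, the terminal oligopyrimidine tract, through which mTOR signaling sets their translation. The mRNAs are short and abundant, and the mammalian genome holds many processed pseudogenes copied from them. Subunit assembly takes place largely in the nucleolus and is heavy in growing cells. In humans, loss of a single copy of several of these genes causes Diamond-Blackfan anemia, and in mice the neural crest is among the tissues sensitive to impaired ribosome assembly.

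Library totals lay between 6065029 and 12121327 counts, and values are given as CPM (counts scaled to a common library size) with TMM normalization over all 15 libraries. Since amplified reads carry no molecular identifiers, counting precision is not that of independent molecules. The sorted cells had the markers of ENCDC: all 8 listed genes, Sox10 and Ret among them, were counted in every group, with a summed level of 1105 to 4291 CPM over libraries. Erythroid genes summed to 826 and 4088 CPM in E13.5 control libraries 2 and 3 and to at most 77.8 CPM in any other library, and 2 of the 9 listed genes, Hba-x among them, were at 0 in the E13.5 RarαDN libraries. The 6 listed macrophage genes summed to 24.4 to 146.7 CPM in the E11.5 RarαDN libraries and to at most 11.2 CPM in E11.5 control libraries. Because these are bulk samples, fewer cells of a type and less RNA per cell cannot be told apart.

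Most members were counted well, but over a very wide range. Per kilobase of transcript, and averaged over the 8 control libraries, high levels were 1314 CPM per kb for Rpl8, a core protein near the peptidyl transferase center, and 1161 CPM per kb for Rpl41, which encodes the shortest ribosomal protein. The lowest among tested members were 1.58 CPM per kb for Rpl28, 3.65 for Rpl23a, which lies at the tunnel exit, and 3.71 for Rps16, which reaches toward the tRNA site. In E13.5 controls the 10 most counted members held 55.7% of the summed CPM of all tested members, and 12 of 80 had a mean under 10 CPM.

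This spread went with how much of each coding sequence is shared with other genes. Every 50-base window of a member's coding part was looked up in the annotated transcripts of all other genes, pseudogenes included. No window was free of such a match in 29 members, whose total counts over the 15 libraries had a median of 1174. In the 37 members with some but under 40% of windows of their own the median was 14782 counts, and in the 14 tested members with 40% or more it was 46951 counts. Across the 80 tested members, Spearman's rho between the share of unshared windows and the level per kb was 0.681, given as a description since genes are not independent replicates. Rpl41 went the other way, with 52926 counts and no unshared window. Its coding part of 75 nt gave only 26 windows, and the rest of its 437 nt transcript was not searched. How reads that match several places were counted was not found in the labels or the methods, and the part of shared sequence in the levels was not tested.

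**Figure D1:**
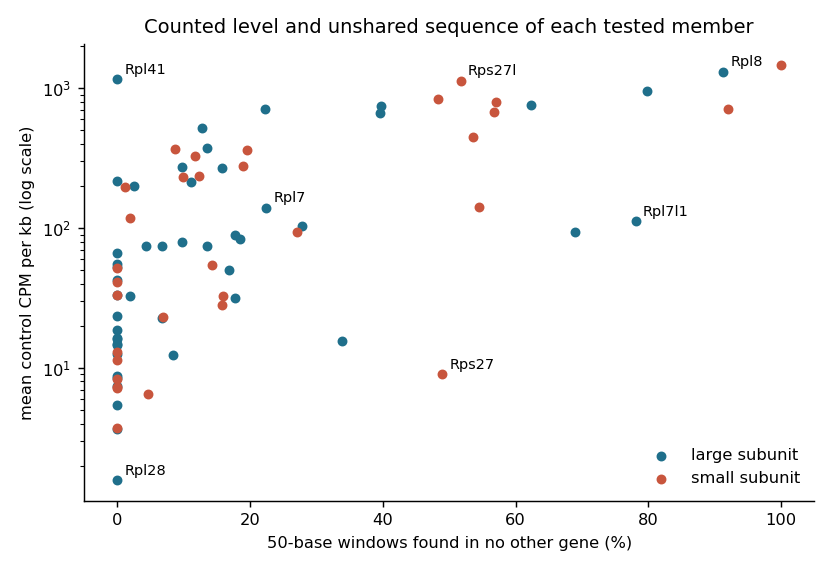
Each point is 1 of the 80 tested members, with the percentage of its 50-base windows found in no other annotated gene on the x axis and its mean level in the 8 control libraries, in CPM per kb on a log scale, on the y axis. Members without an unshared window reach from 1.58 CPM per kb (Rpl28) to 1161 (Rpl41), and members above 40% lie mostly above 100 CPM per kb, with Rps27 and Rpl22 below it.

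Most paralog pairs were counted very unequally. Rps27l, a p53-responsive relative of Rps27, had 58089 counts over the 15 libraries against 513 for the counted transcript of Rps27. Of the windows of Rps27 48.9% were unshared, and of those of Rps27l 51.7%. The counted Rps27 transcript is a non-coding RefSeq record, so its counts may not give the level of the Rps27 mRNA. For Rps27 the whole transcript was searched, as no coding part was annotated. Rpl7l1 had 41950 counts (78.1% of windows unshared) against 18223 for Rpl7 (22.5%). Rpl22 and Rpl22l1 were closer, with 21913 and 14764 counts. Rpl3l, the striated muscle form of Rpl3, had 17 counts in all and Rpl39l 9, with all of their windows unshared, against 14782 for Rpl3 and 22233 for Rpl39. Rpl3l and Rpl39l were left out by the filter on low counts, so 80 of the 82 members were tested, 48 of the large and 32 of the small subunit. The 13 of 17 Rpl3l counts that fell in 1 library were in E13.5 control 4. Rpl26, which lies at the tunnel exit, had the same counts as the predicted gene Gm15772 in every library and cannot be told apart from it.

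Summed over all members, ribosomal protein transcripts were much higher in E13.5 colon controls than in any other group. The summed level was 19880.4, 29113, 28607 and 20385 CPM in the 4 E13.5 control libraries and 12796, 12071 and 12862 CPM in the 3 RarαDN libraries, so the groups did not overlap, and the means were 24496 ± 5047 (n = 4) and 12576 ± 438 (n = 3) CPM (± SD). In the E11.5 stomach it was 8109, 10498, 6753 and 5937 CPM in controls and 14044, 10025, 7447 and 9200.3 CPM in RarαDN libraries, with means of 7824 ± 1995 (n = 4) and 10179 ± 2792 (n = 4) CPM, and these groups overlapped. As a share of all counts the members held 1.84, 2.48, 2.50 and 2.01% in E13.5 controls against 1.27, 1.17 and 1.29% in RarαDN libraries. In E13.5 controls, libraries 2 and 3, which were those rich in erythroid transcripts, were both above libraries 1 and 4 for 66 of the 80 tested members (82.5%) and for 2634 of 12085 genes tested (21.8%). Control libraries 1 and 4 had 20.6 and 54.8 CPM of erythroid transcripts and summed levels above all 3 RarαDN libraries. The part of erythroid cells in these levels was not tested.

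Both subunits followed the same order of groups, and the ratio between them at E13.5 depended in part on Rpl4, the most counted large subunit member. The summed level of the large subunit divided by that of the small subunit was 1.22, 1.10, 1.14 and 1.18 in E13.5 controls and 1.30, 1.27 and 1.29 in E13.5 RarαDN libraries. Every RarαDN library was above every control, and the means were 1.16 ± 0.0517 (n = 4) and 1.29 ± 0.0130 (n = 3). At E11.5 the ratio was 1.40, 1.34, 1.39 and 1.44 in controls and 1.38, 1.42, 1.37 and 1.45 in RarαDN libraries, with overlapping groups. Rpl4 was then left out, a choice made after seeing the data. The ratio without it was 0.991, 0.946, 0.979 and 1.00 in E13.5 controls and 1.01, 0.971 and 1.03 in E13.5 RarαDN libraries. The groups overlapped through RarαDN library 2 alone. In that library the large subunit member Rpl29 had 1.76 CPM, against 213 and 212 CPM in RarαDN libraries 1 and 3. The large sum also holds Rpl7l1, whose groups overlapped. Rpl7l1 had 353, 359, 269.9 and 294 CPM in E13.5 controls and 338, 419 and 315 CPM in E13.5 RarαDN libraries. The part of Rpl29 in this overlap and that of Rpl7l1 in the ratio were not tested. The ratio does not depend on scaling between libraries. Among the E13.5 controls, libraries 2 and 3 had the lowest ratios.

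**Figure D2:**
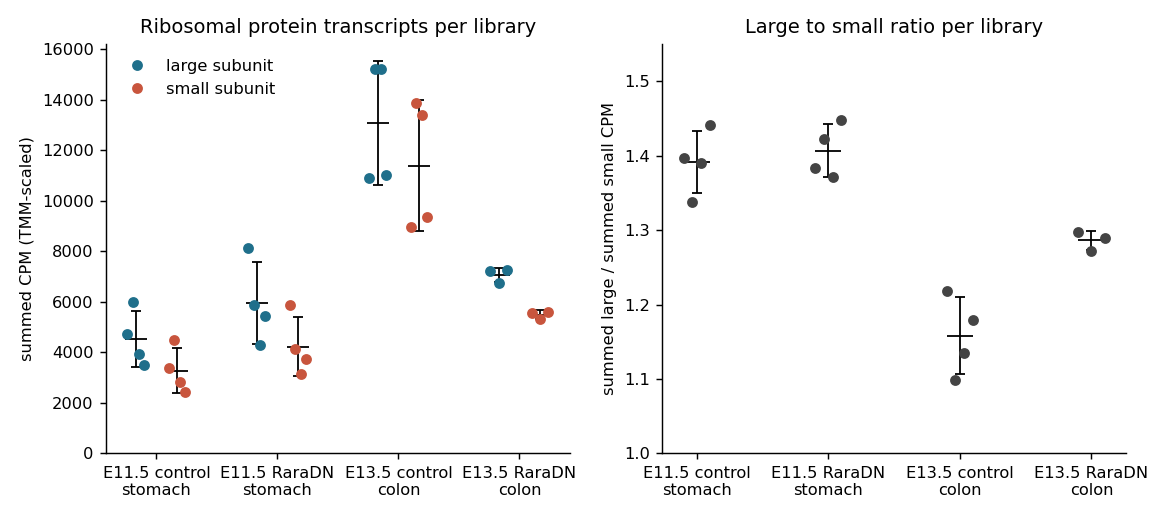
The left panel shows, for each of the 15 libraries, the summed TMM-scaled CPM of large (blue) and small (red) subunit members, and the right panel the ratio of both sums on an axis that starts at 1; bars are the mean and SD of a group. E13.5 controls lie highest in both sums and lowest in the ratio, which includes Rpl4, and libraries 2 and 3 are the upper pair of the controls in both sums.

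At E13.5, ribosomal protein transcripts were lower in RarαDN-expressing colon ENCDC across both subunits. Of the 80 tested members, 42 were lower and 0 were higher at an edgeR adjusted p under 0.05, against 5.55% of all 12085 genes called lower and 2.78% called higher. In the large subunit 22 of 48 members were called, with a median log2 fold change of -1.01 over all 48, and in the small subunit 20 of 32, with a median of -1.08. The median over all 80 members was -1.03, against 0.06 over all genes tested, and the called members ranged from -1.56 to -0.71. The fold change was below 0 for 77 of 80 members, with Rpl3, Rpl7l1 and Rpl15 as the exceptions. In 63 of 80 members (37 large, 26 small) all 3 RarαDN libraries were below all 4 controls, as was so for 13.7% of all genes tested. The count depended on RarαDN libraries 1 and 2: without RarαDN library 1 no member was called (0.151% of all genes lower) and without RarαDN library 2 only Rplp0 was (0.256%). The median log2 fold change of the 80 members was -1.02 and -1.004 in these fits, with 2 RarαDN libraries left in each. An unadjusted edgeR p under 0.05 was found for 50 and 52 members, against 2028 of 12557 and 2235 of 12505 genes tested.

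**Figure D3:**
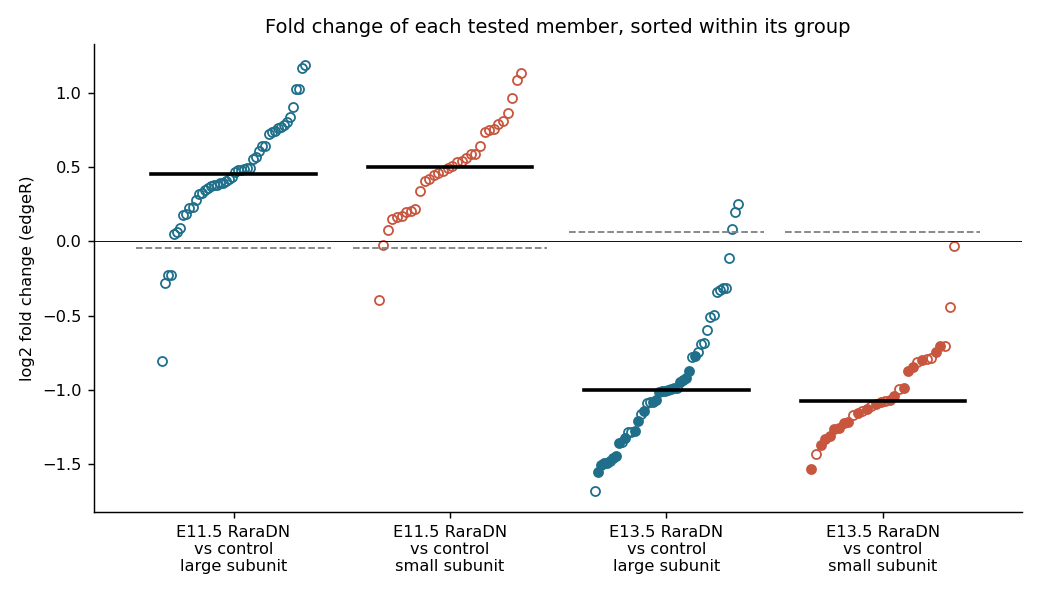
Each circle is the edgeR log2 fold change of 1 tested member between RarαDN and control libraries of the same age, sorted within its subunit (large in blue, small in red); filled circles passed an adjusted p under 0.05, the black line is the median of the members and the dashed line the median of all genes tested. No member is filled at E11.5, and the members center near 0.45 to 0.50 there and near -1.01 to -1.08 at E13.5.

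Among large subunit members the lowest adjusted p belonged to Rplp0, the base of the stalk that recruits translation factors. Rplp0 had 1461, 1703, 1771 and 1321 CPM in the control libraries and 836, 773 and 777 CPM in the RarαDN libraries (log2 change -0.94 ± 0.12 SE, adjusted p = 0.00609 by edgeR). Rpl41 had 561, 1069, 1076 and 693 CPM in the control libraries and 273, 247 and 320.0 CPM in the RarαDN libraries (log2 change -1.56 ± 0.22 SE, adjusted p = 0.00811 by edgeR). Rpl14 had 879.9, 1309, 1314 and 941 CPM in the control libraries and 532, 533 and 539 CPM in the RarαDN libraries (log2 change -1.01 ± 0.15 SE, adjusted p = 0.00846 by edgeR). These 3 members were lower in all RarαDN libraries, with RarαDN levels close to each other and controls 2 and 3 on top. For Rpl32, the control libraries had 453, 789.8, 814 and 525 CPM and the RarαDN libraries 243, 221 and 268 CPM (log2 change -1.36 ± 0.20 SE, adjusted p = 0.00846 by edgeR). Rpl22l1, the paralog that can stand in for Rpl22, had 173, 288, 295 and 206 CPM in controls and 91.9, 94.2 and 103 CPM in RarαDN libraries (log2 change -1.28 ± 0.20 SE, adjusted p = 0.00862 by edgeR). Rpl22 itself also fell, from 275 ± 72.8 CPM (n = 4) to 138 ± 6.97 CPM (n = 3) (log2 change -0.95 ± 0.20 SE, adjusted p = 0.0185 by edgeR), so both paralogs were lower together. Rpl39, a protein of the exit tunnel wall, fell from 245, 468, 471 and 317 CPM to 129, 116 and 155 CPM (log2 change -1.45 ± 0.23 SE, adjusted p = 0.00874 by edgeR).

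Among small subunit members the lowest adjusted p belonged to Rps24, a protein needed to process the small subunit's RNA. Rps24 had 222, 368, 361 and 259 CPM in the control libraries and 124, 118 and 124 CPM in the RarαDN libraries (log2 change -1.27 ± 0.19 SE, adjusted p = 0.00824 by edgeR). Rps20, in the head of the small subunit, had 250.3, 371, 425 and 258 CPM in controls and 134, 119.9 and 142 CPM in RarαDN libraries (log2 change -1.26 ± 0.20 SE, adjusted p = 0.00862 by edgeR). Rps9, which lies by the mRNA entry, had 730.5, 1176, 1047 and 719 CPM in controls and 426, 393 and 405 CPM in RarαDN libraries (log2 change -1.13 ± 0.17 SE, adjusted p = 0.00862 by edgeR). In both members the highest RarαDN library was well below the lowest control. Rps21 had 67.1, 116, 118 and 75.9 CPM in controls and 30.7, 28.7 and 35.03 CPM in RarαDN libraries, the lowest log2 fold change among called small subunit members (log2 change -1.54 ± 0.25 SE, adjusted p = 0.00886 by edgeR).

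**Figure D4:**
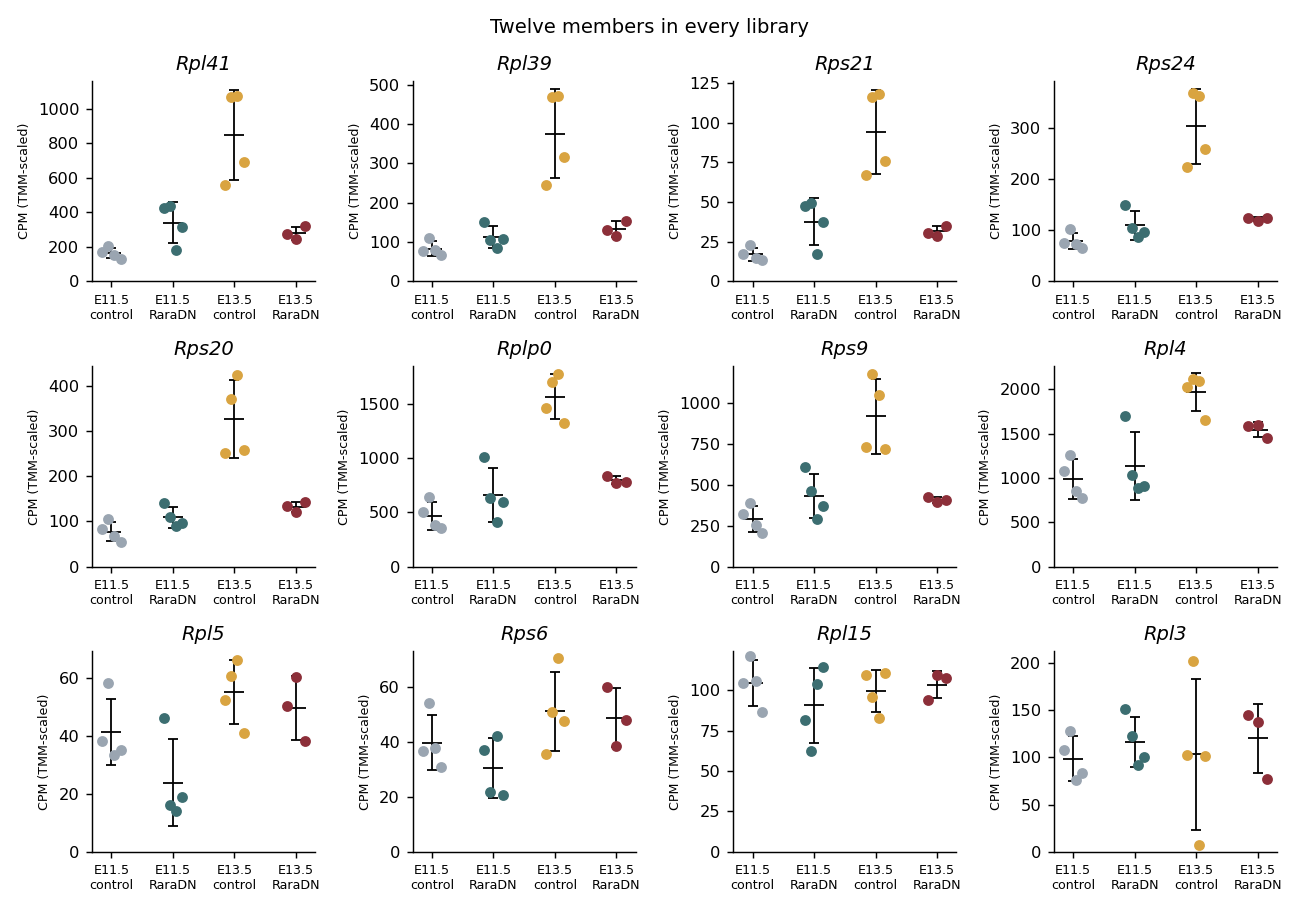
TMM-scaled CPM of 12 members in each of the 15 libraries, with the mean and SD of each group; every y axis starts at 0. Rpl41, Rpl39, Rps21, Rps24, Rps20, Rplp0 and Rps9 show 3 RarαDN libraries below all 4 controls at E13.5, Rpl4 a smaller gap, and Rpl5, Rps6, Rpl15 and Rpl3 overlapping groups, with 1 E13.5 control library of Rpl3 near 0.

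The stalk proteins Rplp1 and Rplp2, which form the flexible arms on Rplp0, fell as well: Rplp1 from 537 ± 200.1 CPM (n = 4) to 185 ± 62.7 CPM (n = 3) (log2 change -1.50 ± 0.31 SE, adjusted p = 0.0190 by edgeR) and Rplp2 from 24.3 ± 6.58 CPM (n = 4) to 8.57 ± 1.56 CPM (n = 3) (log2 change -1.46 ± 0.39 SE, adjusted p = 0.0468 by edgeR). Rps3 and Rps2, which line the mRNA entry, fell from 2019.9 ± 461 CPM (n = 4) to 1072 ± 25.8 CPM (n = 3) (log2 change -0.87 ± 0.16 SE, adjusted p = 0.0110 by edgeR) and from 52.96 ± 10.53 CPM (n = 4) to 24.5 ± 3.64 CPM (n = 3) (log2 change -1.07 ± 0.26 SE, adjusted p = 0.0341 by edgeR). Rps15 and Rps19, both needed for maturation of the small subunit, had log2 fold changes of -1.16 (SE 0.20, edgeR adjusted p = 0.00973) and -1.37 (SE 0.22, edgeR adjusted p = 0.00886). Rpsa, also known as the laminin receptor, fell from 585 ± 93.8 CPM (n = 4) to 348 ± 33.8 CPM (n = 3) (log2 change -0.71 ± 0.14 SE, adjusted p = 0.0164 by edgeR), the smallest fall among the called members. Rps27l (log2 change -1.08 ± 0.18 SE, adjusted p = 0.00913 by edgeR), Rpl7 (log2 change -1.003 ± 0.16 SE, adjusted p = 0.00886 by edgeR), Rps4x, the X-linked form of Rps4 (log2 change -0.75 ± 0.14 SE, adjusted p = 0.0134 by edgeR), Rpl8 (log2 change -0.87 ± 0.15 SE, adjusted p = 0.00953 by edgeR) and Rpl26 (log2 change -1.21 ± 0.27 SE, adjusted p = 0.0246 by edgeR) were called lower too. Rps27a, made as a fusion with ubiquitin, had 15.1, 21.7, 16.7 and 13.6 CPM in controls and 6.98, 6.68 and 8.07 CPM in RarαDN libraries without overlap, and did not pass the test (log2 change -1.17 ± 0.42 SE, adjusted p = 0.124 by edgeR).

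A smaller set of members was not lower or barely so. Rpl15 had 109, 95.97, 82.9 and 111 CPM in the control libraries and 93.9, 109 and 107 CPM in the RarαDN libraries (log2 change 0.08 ± 0.18 SE, adjusted p = 0.835 by edgeR). Rps6 had 35.5, 50.8, 70.3 and 47.4 CPM in the control libraries and 59.7, 38.2 and 47.9 CPM in the RarαDN libraries (log2 change -0.03 ± 0.28 SE, adjusted p = 0.971 by edgeR). Rps6 is the substrate of the S6 kinases, and Rpl15 is an early-binding large subunit protein, and the RarαDN values of both lay within the range of the controls. Rpl7l1, which unlike Rpl7 is chiefly a processing factor of the large subunit, had 353, 359, 269.9 and 294 CPM in controls and 338, 419 and 315 CPM in RarαDN libraries (log2 change 0.20 ± 0.16 SE, adjusted p = 0.508 by edgeR). Rpl5 and Rpl11, which with 5S rRNA form the particle that binds Mdm2, did not pass the test: Rpl5 had 52.4, 60.8, 66.5 and 41.2 CPM in controls and 50.4, 60.5 and 38.3 CPM in RarαDN libraries (log2 change -0.11 ± 0.25 SE, adjusted p = 0.842 by edgeR), and Rpl11 only 8.52, 8.01, 8.11 and 6.74 CPM in controls and 5.65, 7.86 and 4.72 CPM in RarαDN libraries (log2 change -0.33 ± 0.56 SE, adjusted p = 0.785 by edgeR). Rpl4, whose extension lines the exit tunnel and which is among the most counted members, had 2029.9, 2119, 2088 and 1654 CPM in controls and 1589, 1601 and 1445 CPM in RarαDN libraries. Its groups did not overlap, but the difference was small and not called (log2 change -0.31 ± 0.12 SE, adjusted p = 0.131 by edgeR). Rpl17, at the tunnel's narrow part, and Rpl10, the last protein to join the large subunit, had means under 16 CPM in all groups and did not pass the test (log2 change -0.31 ± 0.47 SE, adjusted p = 0.753 by edgeR for Rpl17; log2 change -0.34 ± 0.41 SE, adjusted p = 0.680 by edgeR for Rpl10).

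Members were also read for what their promoters share, since they moved together. RefSeq promoters of 300 bases, with 250 before and 50 after the listed start, were at hand for 61 of the 82 members (73 promoters). A run of at least 8 pyrimidines that begins with C and lies within 50 bases of the listed start on the coding strand was found in 79.5% of the members' promoters, against 28.3% of all 32851 promoters. The word CCGGAAG, a form of the ETS factor motif, was found on either strand in 35.6% against 8.86%; its reverse complement begins with pyrimidines, so it can overlap such a run. These matches are letters in a window and say nothing of binding or of the true start. The 30 bases around the run (in capitals, 5′ to 3′ on the gene's strand, build GRCm38.p6) are shown for 4 members that fell at E13.5, Rpl41, Rpl39, Rps21 and Rps24, and for 3 that were not called, Rps6, Rpl15 and Rpl4. In Rpl41 and Rpl39 the run reaches the end of the listed promoter.
Rpl41 (chr10:128549119-128549148, minus strand): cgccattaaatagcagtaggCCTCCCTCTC
Rpl39 (chrX:37085173-37085202, minus strand): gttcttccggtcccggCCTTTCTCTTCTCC
Rps21 (chr2:180257399-180257428, plus strand): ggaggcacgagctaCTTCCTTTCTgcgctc
Rps24 (chr14:24490711-24490740, plus strand): agcggtCCTCTTTTCCTCCTCTCCagctcc
Rps6 (chr4:86857349-86857378, minus strand): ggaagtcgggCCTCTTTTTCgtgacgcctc
Rpl15 (chr14:18270968-18270997, minus strand): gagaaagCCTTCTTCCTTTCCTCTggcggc
Rpl4 (chr9:64173405-64173434, plus strand): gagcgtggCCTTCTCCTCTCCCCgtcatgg
The run was 10, 14, 10 and 18 bases long in Rpl41, Rpl39, Rps21 and Rps24, and 10, 17 and 15 bases in Rps6, Rpl15 and Rpl4. Both the members that fell and those that were not called carry it.

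In 2 well counted members a single library set the result. Rpl3, a core protein near the peptidyl transferase center, had 102, 202, 6.66 and 101 CPM in E13.5 controls, with library 3 far below the others, and 145, 138 and 77.4 CPM in RarαDN libraries (log2 change 0.25 ± 0.75 SE, adjusted p = 0.882 by edgeR); without control library 3 its log2 fold change was -0.14. Rpl29, named after its values were seen, had 175, 537, 276 and 197 CPM in controls and 213, 1.76 and 212 CPM in RarαDN libraries (log2 change -1.01 ± 1.19 SE, adjusted p = 0.683 by edgeR), with RarαDN library 2 near 0. Of the 29 members without an unshared window 3 were called lower, with a median log2 fold change of -0.79, against 28 of 37 with some (-1.10) and 11 of 14 with 40% or more (-1.01). Among 80 members, Spearman's rho between the share of unshared windows and the log2 fold change was -0.267.

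The E13.5 differences went with transcript length. Across all 11887 tested genes with a length, log2 fold changes were lower for shorter transcripts (Spearman's rho 0.484), and the members, with a median of 795 nt against 2934 nt for all genes tested, are among the shortest. Among the 80 members themselves rho was 0.556 with transcript length and, in the 79 with an annotated coding part, 0.662 with coding length; these are descriptions across genes. When the trend with transcript length, estimated per library on the genes other than the members, was removed, 4 of 80 members were still called lower (1.19% of all genes) and the median of the members was -0.17. The 4 were Rps15a (log2 fold change -1.80, SE 0.26, edgeR adjusted p = 0.0174), Rps20 (-1.60, SE 0.23, adjusted p = 0.0178), Rplp0 (-0.55, SE 0.08, adjusted p = 0.0238) and Rps3 (-0.76, SE 0.14, adjusted p = 0.0382). Rps15a and Rps20 carry listed transcripts of 5179 and 3706 nt with coding parts of 390 and 357 nt, far above the other members, so their values in that fit rest on these listed lengths, and Rps15a was named after its values were seen. With coding length in place of transcript length, a choice made after seeing the data, 21 members were called lower (2% of all genes) and the median of the members was -0.62. In that fit Rps15a was not called (log2 fold change -0.75, edgeR adjusted p = 0.0605), while Rps20 (-0.66, adjusted p = 0.0371), Rplp0 (-0.87, adjusted p = 0.00693) and Rps3 (-0.67, adjusted p = 0.0296) were. What links length and fold change in these libraries was not tested.

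**Figure D5:**
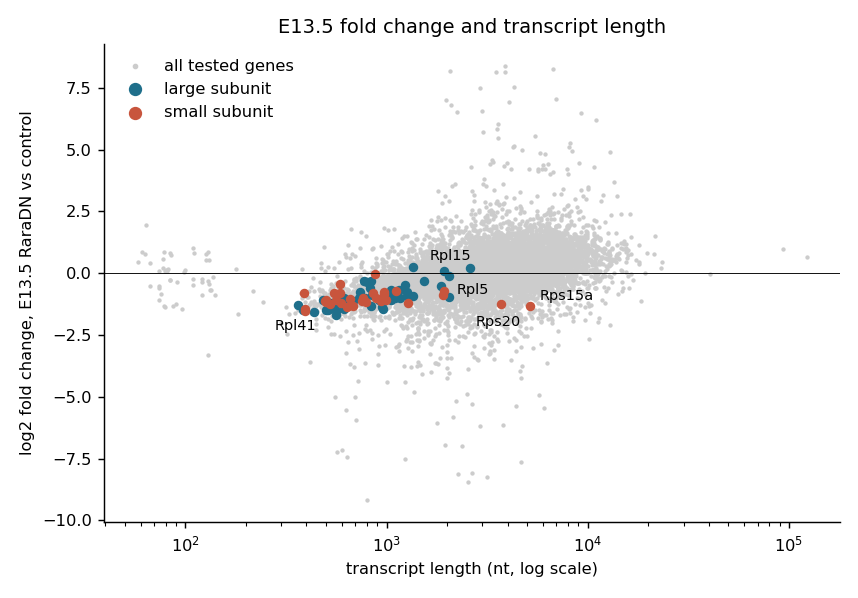
Transcript length in nt on a log axis against the edgeR log2 fold change between E13.5 RarαDN and control libraries, for 11887 tested genes (grey) and for the 80 tested members (large subunit blue, small subunit red). Short transcripts lie lower (rho 0.484 over all genes), the members sit at the short end around their median of 795 nt, and Rps15a and Rps20 lie apart at their listed lengths of 5179 and 3706 nt.

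Several sets of libraries bear on the size of the fall. Without control libraries 2 and 3, rich in erythroid transcripts, 20 of 80 members were called lower (1.14% of all genes). The median of the members was -0.78 in that fit, against -1.03 with every library. Of the 80 members 76 were below 0, as were 5854 of all 12448 genes tested. Pan-neuronal markers summed to 1888 to 2441 CPM in the 4 controls and 944 to 1483 CPM in the 3 RarαDN libraries, and ENCDC markers to 1105 to 1492 and 2084 to 2606 CPM, so the groups did not overlap in either sum. The 6 mesenchyme and smooth muscle genes summed to 153.8 to 298.0 CPM in controls and 67.7 to 122.5 CPM in RarαDN libraries, also without overlap. All 5 pan-neuronal, all 8 ENCDC and all 6 mesenchyme and smooth muscle genes were counted in both groups, and their part in the fall of the members was not tested.

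At E11.5, no member passed the test between RarαDN-expressing and control stomach ENCDC in the main comparison. By edgeR 0 of 80 members were called, against 3.07% of 12427 genes called higher and 2.93% lower. An unadjusted edgeR p under 0.05 was found for 12 of 80 members and for 2407 of all 12427 genes. By DESeq2 Rpl41 and Rps21 were called higher, against 5.80% of all genes called higher and 5.17% lower. The fold changes nevertheless leaned upward in 74 of 80 members, with a median of 0.45 for the large and 0.50 for the small subunit against -0.05 over all genes tested. In 4 of 80 members (Rpl11, Rpl34, Rps2 and Rps27a, of which Rpl34 was named after its values were seen) all 4 RarαDN libraries were above all 4 controls, against 6.9% of all genes tested, and in 0 of 80 they were all below, against 8.76%. RarαDN library 1 was the highest of its group for 58 of 80 members (72.5%) and for 30.7% of all genes tested. Pan-neuronal markers summed to 566 to 1242 CPM in controls and 82.2 to 215.7 CPM in RarαDN libraries, and ENCDC markers to 2309 to 4291 and 1309 to 2119 CPM. Of 4 listed endothelial genes 3 were in the table, and they summed to 18.4 to 63.7 CPM in controls and 0 to 1.60 CPM in RarαDN libraries, with Cdh5 at 0 in both groups and Pecam1 at 0 in the RarαDN group. The macrophage genes, given above, were higher in all 4 RarαDN libraries than in any control, and the part of these differences in the members' values was not tested.

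Rpl41 came closest to a call, with 173, 203, 153 and 129 CPM in controls and 424, 437, 181 and 317 CPM in RarαDN libraries (log2 change 1.03 ± 0.27 SE, adjusted p = 0.0526 by edgeR). RarαDN library 3 lay among the controls. Without that library the log2 fold change was 1.27 (edgeR adjusted p = 0.0135), and Rpl41 was also called with RLE scaling (adjusted p = 0.0490), with no scaling (0.0439) and with all 4 groups in 1 fit (0.0222). Rps21 had 17.3, 22.8, 14.5 and 13.3 CPM in controls and 47.2, 49.1, 17.4 and 37.1 CPM in RarαDN libraries (log2 change 1.14 ± 0.37 SE, adjusted p = 0.109 by edgeR), again with RarαDN library 3 among the controls, and was called without that library (log2 fold change 1.41, edgeR adjusted p = 0.0293). The next in each subunit were Rpl19, which takes part in a bridge between the subunits, with 20.4, 24.6, 16.2 and 18.97 CPM in controls and 46.3, 39.9, 23.4 and 29.97 CPM in RarαDN libraries (log2 change 0.78 ± 0.31 SE, adjusted p = 0.194 by edgeR), and Rps15, with 139.8, 182, 109 and 93.4 CPM in controls and 307, 228, 144 and 205 CPM in RarαDN libraries (log2 change 0.74 ± 0.27 SE, adjusted p = 0.160 by edgeR). Neither passed the test. On the lower side Rpl5 had 38.5, 58.5, 33.4 and 35.3 CPM in controls and 46.2, 16.05, 14.1 and 18.9 CPM in RarαDN libraries (log2 change -0.81 ± 0.41 SE, adjusted p = 0.320 by edgeR). Without RarαDN library 1, its only high library in that group, Rpl5 was called lower (log2 fold change -1.32, edgeR adjusted p = 0.0288). Rpl15 had 105, 121, 106 and 86.3 CPM in controls and 81.9, 62.4, 104 and 114 CPM in RarαDN libraries (log2 change -0.23 ± 0.23 SE, adjusted p = 0.646 by edgeR) and Rps6 had 36.4, 53.9, 37.6 and 30.6 CPM in controls and 37.04, 21.8, 42.2 and 20.5 CPM in RarαDN libraries (log2 change -0.40 ± 0.33 SE, adjusted p = 0.564 by edgeR), both with overlapping groups. Log2 fold changes at E11.5 went with transcript length in the opposite sense to E13.5 (rho -0.287 over 12226 genes, -0.341 over 80 members). With the trend of the other genes removed the median of the members was 0.14. In that fit 0 of 80 were called (4.22% of all genes called higher and 2.87% lower). There 5 members were at an unadjusted edgeR p under 0.05, against 2531 of 12427 genes.

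The effect of RarαDN on ribosomal protein transcripts differed between the experiments. A direct test of the difference, E13.5 effect minus E11.5 effect in 1 fit of the 4 groups, called 49 of 80 members lower and 0 higher (27 of 48 large, 22 of 32 small), against 7.2% of 13412 genes called lower and 7.34% higher. The 5 members of lowest adjusted p were Rpl41, Rps21, Rps24, Rpl39 and Rps20. Rpl41 had log2 fold changes of 1.03 at E11.5 and -1.56 at E13.5 (difference -2.65, SE 0.39, adjusted p = 0.000493 by edgeR). The values of Rps21 were 1.14 at E11.5 and -1.54 at E13.5 (difference -2.74, SE 0.47, adjusted p = 0.00137 by edgeR). Those of Rps24 were 0.45 at E11.5 and -1.27 at E13.5 (difference -1.77, SE 0.31, adjusted p = 0.00173 by edgeR), and those of Rpl39 0.41 at E11.5 and -1.45 at E13.5 (difference -1.92, SE 0.35, adjusted p = 0.00216 by edgeR). Rps20 had 0.48 at E11.5 and -1.26 at E13.5 (difference -1.80, SE 0.33, adjusted p = 0.00239 by edgeR). As an example of the levels behind these differences, Rps24 had 79.3 ± 16.1 CPM (n = 4) in E11.5 controls, 109 ± 27.5 CPM (n = 4) in E11.5 RarαDN, 302 ± 72.97 CPM (n = 4) in E13.5 controls and 122 ± 3.29 CPM (n = 3) in E13.5 RarαDN libraries. Rps6, Rpl5 and Rpl15 had differences above 0 that did not pass the test (0.31, 0.64 and 0.26). With the length trend of the other genes removed, 11 members were called lower (5.8% of all genes) and 1, Rps6, higher (3.03%, difference 1.33, SE 0.38, edgeR adjusted p = 0.0417).

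Between the controls, 60 of 80 members were higher in E13.5 colon than in E11.5 stomach and 0 were lower, against 14.2% of 13412 genes called higher and 14.4% lower. Of the large subunit 34 of 48 were called, with a median log2 fold change of 1.64, and of the small subunit 26 of 32, with a median of 1.91; over all genes tested the median was -0.20. The called members ranged from 0.99 (Rpl4) to 2.47 (Rps21). Rps21 had 17.3, 22.8, 14.5 and 13.3 CPM in E11.5 and 67.1, 116, 118 and 75.9 CPM in E13.5 controls. Rpl15 did not pass the test, with 105, 121, 106 and 86.3 CPM in E11.5 and 109, 95.97, 82.9 and 111 CPM in E13.5 controls (log2 difference -0.07, SE 0.20, edgeR adjusted p = 0.832). Shorter transcripts were higher at E13.5 over all 13182 genes with a length (rho -0.527) and among the members (-0.488), and with the trend of the other genes removed 35 members were called, all higher (9.79% of all genes called higher and 4.16% lower). This comparison, the E13.5 comparison and the difference between the ages use the same control libraries, so their values for a member are not independent.

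Ribosomal proteins whose symbols fall outside the naming rule were mostly lower at E13.5 too. Of 4 such genes 3 were called lower and 0 higher, against 5.55% and 2.78% of all genes, with a median of -0.97. Their median transcript length was 638.5 nt. With the length trend of the other genes removed, 0 of 4 were called (1.19% of all genes lower, 0.463% higher) and the median was -0.13. Rpl36al (log2 change -1.19 ± 0.19 SE, adjusted p = 0.00886 by edgeR) and Gnb2l1, the scaffold protein RACK1 on the small subunit (log2 change -0.63 ± 0.15 SE, adjusted p = 0.0299 by edgeR), fell, while Fau had a log2 fold change of -0.75 (SE 0.65, edgeR adjusted p = 0.549). At E11.5 none of the 4 was called, by edgeR or by DESeq2. There 1 was at an unadjusted edgeR p under 0.05, against 2407 of 12427 genes tested.

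Genes whose products build ribosomes were called in both directions. Of 49 ribosome biogenesis genes at E13.5, 4 were called higher and 3 lower, against 2.78% and 5.55% of all genes tested, with a median log2 fold change of 0.22. Nop10, a small protein of the pseudouridylation complex, had 571 ± 131 CPM in controls and 239 ± 21.01 CPM in RarαDN libraries (log2 change -1.21 ± 0.17 SE, adjusted p = 0.00811 by edgeR), and Polr1d, a short subunit of RNA polymerases I and III, fell as well (log2 change -1.08 ± 0.21 SE, adjusted p = 0.0139 by edgeR). Dkc1, the enzyme of the complex that holds Nop10, rose (log2 change 0.60 ± 0.12 SE, adjusted p = 0.0181 by edgeR). The median transcript length of this list was 2702 nt, against 795 nt for the members. Of 35 translation factors 4 were called higher and 6 lower, beside the same 2.78% and 5.55% of all genes, with a median of -0.01: the scaffold Eif4g1 rose (log2 change 1.18 ± 0.18 SE, adjusted p = 0.00862 by edgeR), while Eif3k (log2 change -0.88 ± 0.16 SE, adjusted p = 0.0106 by edgeR) and the elongation factor Eef1a1 (log2 change -0.51 ± 0.11 SE, adjusted p = 0.0194 by edgeR) fell. Of 19 other genes whose mRNAs begin with an oligopyrimidine tract, 6 were called lower and 0 higher (5.55% and 2.78% of all genes). This list shares genes such as Eef1a1 and Npm1 with the other lists. Its median was -0.43, and Btf3 was among the genes called lower (log2 change -0.70 ± 0.16 SE, adjusted p = 0.0257 by edgeR). With the length trend of the other genes removed, 1 was called lower and 1 higher (1.19% and 0.463% of all genes), and the median was -0.006. Of 18 regulators of ribosome production such as Myc, Mtor and Trp53, 1 was called higher, Larp4 (log2 change 1.10 ± 0.29 SE, adjusted p = 0.0444 by edgeR), and 0 lower, against 2.78% and 5.55% of all genes.

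Mitochondrial ribosomal proteins, which make up a separate ribosome inside mitochondria, fell at E13.5 in 26 of 76 genes with 0 higher, against 5.55% of all genes called lower and 2.78% higher, and had a median log2 fold change of -0.54. The 3 of lowest adjusted p were Mrpl30 (log2 change -0.97 ± 0.15 SE, adjusted p = 0.00862 by edgeR), Mrpl54 (log2 change -1.02 ± 0.17 SE, adjusted p = 0.00922 by edgeR) and Mrpl53 (log2 change -1.26 ± 0.21 SE, adjusted p = 0.00929 by edgeR). Of 35 tested proteasome subunits 8 were lower and 0 higher, beside the same shares of all genes, with a median of -0.21, led by Psma7 (log2 change -0.78 ± 0.14 SE, adjusted p = 0.0110 by edgeR), Psmb6 (log2 change -0.67 ± 0.16 SE, adjusted p = 0.0292 by edgeR) and Psmb7 (log2 change -0.72 ± 0.17 SE, adjusted p = 0.0311 by edgeR). The median transcript lengths of the mitochondrial ribosomal proteins and the proteasome subunits were 1224.5 and 1512 nt. With the length trend of the other genes removed the medians of these lists were -0.08 and 0.13, and that of the biogenesis genes was 0.16. The counts depended on single libraries: among biogenesis genes, translation factors, mitochondrial ribosomal proteins and proteasome subunits no gene was called without RarαDN library 1 and only 1 translation factor without RarαDN library 2. Without RarαDN library 3 the counts were 2, 1, 7 and 0, without control library 2 they were 5, 6, 17 and 1, and without control library 3 they were 2, 3, 13 and 1. The shares of all genes called fell in these fits too. Without RarαDN library 1, 0.151% were lower and 0.0478% higher, and without RarαDN library 2, 0.256% and 0.0960%. The shares were 1.81% and 0.784% without RarαDN library 3, 3.72% and 1.97% without control library 2, and 2.80% and 1.08% without control library 3.

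At E11.5, 0 of 49 biogenesis genes, 0 of 35 translation factors, 0 of 75 mitochondrial ribosomal proteins, 0 of 36 proteasome subunits and 0 of 18 regulators were called by edgeR. At an unadjusted edgeR p under 0.05 there were 8, 1, 4, 3 and 4 genes, against 2407 of 12427 genes tested. The lowest adjusted p in these lists were those of Polr1d (log2 change 0.82 ± 0.24 SE, adjusted p = 0.0740 by edgeR), Ubtf (log2 change -0.57 ± 0.19 SE, adjusted p = 0.112 by edgeR), Eif4g2 (log2 change -0.79 ± 0.34 SE, adjusted p = 0.233 by edgeR), Eif3k (log2 change 0.52 ± 0.27 SE, adjusted p = 0.319 by edgeR), Mrpl38 (log2 change 0.80 ± 0.24 SE, adjusted p = 0.0873 by edgeR), Mrps21 (log2 change 0.91 ± 0.31 SE, adjusted p = 0.127 by edgeR), Psmd1 (log2 change -0.54 ± 0.15 SE, adjusted p = 0.0617 by edgeR), Psmd8 (log2 change 0.73 ± 0.21 SE, adjusted p = 0.0731 by edgeR), Eif4ebp1 (log2 change 0.92 ± 0.31 SE, adjusted p = 0.117 by edgeR) and Mdm2 (log2 change -0.74 ± 0.28 SE, adjusted p = 0.1696 by edgeR). DESeq2 called 1, 0, 1, 3 and 1 genes of these lists, beside 5.80% of all genes called higher and 5.17% lower. Of the 19 other oligopyrimidine mRNAs 0 were called by either tool, with 1 at an unadjusted edgeR p under 0.05 (2407 of 12427 genes).

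Of 18 members whose human counterparts are mutated in Diamond-Blackfan anemia, all 18 were tested. At E13.5, 6 were lower and 0 higher, against 42 of all 80 tested members and 5.55% of all genes called lower. Their median log2 fold change was -1.11, against -1.03 over all members. At E11.5 0 were called by edgeR or DESeq2, with a median of 0.52. There 2 were at an unadjusted edgeR p under 0.05, against 12 of 80 members and 2407 of 12427 genes. The 3 of lowest adjusted p at E13.5 were Rps24, Rps19 and Rps26 (for Rps26 log2 change -1.33 ± 0.23 SE, adjusted p = 0.0104 by edgeR).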

How the data were processed

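Flow-sorted ENCDC of single embryos were profiled with SMART amplification, Nextera XT libraries and single-end Illumina HiSeq reads from 2 runs that were combined. The authors removed ribosomal RNA and repeat reads, used RUM for alignment, and the deposited table gives a raw count for each RefSeq transcript, with log2 values derived from these. The genome build, read length, strand and handling of reads with several matches were stated neither in the labels nor in the methods. The authors' 4 columns of log2 fold changes and FDR values were not used.

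The transcript marked as best for each gene was kept. Genes passing filterByExpr were tested with edgeR 4.0.16 in R 4.3.3 (TMM, robust quasi-likelihood test, Benjamini-Hochberg threshold 0.05), 1 fit per age, and 1 fit of the 4 groups for the difference between ages and between controls. The log2 CPM values behind the length trends use a prior count of 2. Replicates are separate embryos, so p-values measure the spread between embryos. Length trends were removed as a lowess offset (span 0.5) per library, with GENCODE transcript lengths paired to RefSeq. The alternatives used DESeq2 1.42.0, limma 3.58.1, other scalings, filters and transcripts, and left out libraries. The scripts were tested on simulated data.

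The members and lists were chosen with earlier results of these data known. Members named in the text were the 5 of lowest adjusted p per subunit and direction (the closest 2 where none was called), those with set roles, paralogs, filtered or shared members, the 3 highest and lowest levels per kb, and the 5 of lowest adjusted p for the difference between ages. Rpl10l and Rps4l were not analysed here, and some genes that meet these rules are not reported here.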

Additional observations from a re-analysis of the deposited data

Results flagged for a closer look

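The effect of RarαDN differed between E13.5 colon and E11.5 stomach for 49 of 80 tested members by edgeR, all with a lower effect at E13.5. Of all 13412 genes, 7.2% were called lower and 7.34% higher. The 5 members of lowest adjusted p had differences in log2 fold change (E13.5 minus E11.5) of -2.65 for Rpl41 (adjusted p = 0.000493), -2.74 for Rps21 (0.00137), -1.77 for Rps24 (0.00173), -1.92 for Rpl39 (0.00216) and -1.80 for Rps20 (0.00239). With the length trend of the other genes removed, 11 members were called lower (5.8% of all genes) and 1 higher (3.03%).

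A single library stood far above the rest of its group for 5 members at E11.5. Control library 2 had 144.5 CPM of Rpl22. RarαDN library 1 had 107 CPM of Rpl22l1, 46.2 CPM of Rpl5, 423 CPM of Rpl7l1 and 206 CPM of Rps4x. In all, 132 groups of values were looked at this way, and chance gives about 1 such library in 20 groups.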

How the results depend on the processing

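At E11.5 the count of 0 members called became 1 with RLE scaling, 1 with no scaling, 2 with DESeq2, 2 with all 4 groups in 1 fit and 1 with the authors' log2 values in limma (added after seeing the data), and ranged from 0 to 2 with 1 library left out. Of all genes, 3.21% were called higher and 2.80% lower with RLE scaling, and 3.10% and 3.00% with no scaling. The shares were 5.80% and 5.17% with DESeq2, and 3.33% and 3.98% with all 4 groups in 1 fit. With 1 library left out they ranged from 1.48% to 4.65% and from 1.06% to 4.41%. At E13.5 the count of 42 became 4 with the length trend removed, 4 with the trend of other genes, 21 with that of coding length and 20 without control libraries 2 and 3, and ranged from 0 to 46 with 1 library left out. In the same order, 1.16%, 1.19%, 2.0% and 1.14% of all genes were called lower, and 0.151% to 6.25% with 1 library left out. The difference between ages (49) gave 12 and 12 under both transcript length corrections and 35 to 52 with 1 library left out. The contrast of controls (60) gave 35 and 35, and 55 to 62. Under both length corrections 5.76% and 5.80% of all genes were called lower and 3.06% and 3.03% higher for the difference between ages. Between controls 9.54% and 9.79% were called higher and 4.18% and 4.16% lower. In fits that gave 35 and 52 members, 4.39% and 9.53% of all genes were called lower. In those that gave 55 and 62, 9.81% and 14.8% were called higher. Median log2 fold changes at E13.5 became -0.16, -0.17 and -0.52 for the large and -0.17, -0.18 and -0.65 for the small subunit with the length trend, that of other genes and that of coding length removed. What causes the length trend was not tested. Without Rpl4 (added after seeing the data), the mean ratio of large to small subunit sums was 1.09 and 1.14 in E11.5 control and RarαDN libraries and 0.980 and 1.01 in those of E13.5.

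DESeq2 called 1 biogenesis gene, 1 mitochondrial ribosomal protein gene and 3 proteasome genes at E11.5, and 11 biogenesis genes and 17 translation factors at E13.5. Of all genes it called 5.80% higher and 5.17% lower at E11.5, and 5.11% higher and 9.14% lower at E13.5. With the length trend removed, 2 proteasome genes were called at E11.5, and at E13.5 there were 1, 1, 5 and 0 calls among biogenesis genes, translation factors, mitochondrial ribosomal proteins and proteasome genes. In that setting 1.16% of all genes were called lower and 0.455% higher at E13.5, and 2.87% lower and 4.21% higher at E11.5. With 1 library left out the E13.5 counts of these lists ranged from 0 to 9, 0 to 11, 0 to 35 and 0 to 11, and those at E11.5 from 0 to 1, 0 to 0, 0 to 1 and 0 to 2. Of all genes, 0.151% to 6.25% were then called lower and 0.0478% to 4.41% higher at E13.5. At E11.5 these shares were 1.06% to 4.41% and 1.48% to 4.65%.

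Some single members changed sign, all without passing the test. At E13.5, removing the length trend and then that of other genes gave 0.43 and 0.42 for Rpl10, 0.42 and 0.41 for Rpl11, 0.50 and 0.49 for Rpl17, 0.33 and 0.32 for Rps27, 0.086 and 0.073 for Rps27l, and 0.72 and 0.72 for Rps6; Rps15 had 0.014 with the first. Coding length gave 0.027 for Rpl11, 0.036 for Rpl17 and 0.17 for Rps6. Without control libraries 2 and 3, Rpl15 had -0.065, Rpl5 0.11 and Rps6 0.25, and Rps6 had 0.061 with no scaling. With 1 library left out, Rpl15 ranged from -0.00861 to 0.16, Rpl3 from -0.14 to 0.78, Rpl5 from -0.28 to 0.057 and Rps6 from -0.20 to 0.15. Among 945 alternative values of named members, 777 kept direction and call, 132 lost the call, 25 changed sign and 11 gained a call.

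Replicate numbers did not pair the samples: the correlation of same-numbered deviations was -0.20 to 0.24 at E11.5 and 0.038 to 0.046 at E13.5. With the replicate block 0 members were called at E11.5, 37 at E13.5 and 40 for the difference between ages.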
